A study of Mus musculus with 16 samples.

Results

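The genes described here are the collagens other than type IV, the laminin chains, the matrix metalloproteinases and their tissue inhibitors, the ADAMTS proteases and the microfibril-associated proteins, measured in mouse retina. The families were chosen with earlier results of these data known. Within them probes were taken by name alone, where the gene name began with one of these family names followed by a number. By that rule 122 of the 25697 probes on the array, for 85 genes, were matched, and 66 probes for 53 genes were detected, with detection called where the array software gave p below 0.05 for 4 or more of the 16 arrays. The remaining 56 probes left 32 genes with no detected probe, and they were not tested. Of those 56 probes 42 were detected on 0 arrays, 10 on 1 array, 3 on 2 arrays and 1, for Col14a1, on 3 arrays.

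The study asked how retinal gene expression changes with age in each sex. RNA of retina from C57BL/6 mice, which per the labels carried no genetic change and received no drug, was hybridised to Illumina BeadChips in 4 groups of 4 arrays: aged females and young females, and aged males and young males. Young mice were 3 months old and aged mice 24 months old, except that the array titled male aged 1 carries an age label of 12 months and was kept in the group its title gives. Whether each array of a group stands for its own animal is not stated in the labels, so every p-value reflects only the variation among these samples, some of which may be technical. Levels are normalised intensities on a log2 scale and differences are log2 differences. No probe's level is set against another's, since probes differ in brightness for the same amount of RNA.

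The extracellular matrix of the retina lies mainly in its basement membranes, the inner limiting membrane facing the vitreous, the vessel walls and Bruch's membrane under the pigment epithelium, while the light-sensing layers hold little fibrous matrix. Laminins are trimers of alpha, beta and gamma chains that form the first network of a basement membrane, and fibrillar collagens form the fibres of vitreous, sclera and other connective tissue. Matrix metalloproteinases and ADAMTS proteases cut these proteins, tissue inhibitors of metalloproteinases (TIMPs) restrain both families, and microfibril-associated proteins sit on the fibrillin fibres that carry elastin.

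All 20 markers of rods, cones, bipolar cells and Müller glia were detected, so the arrays carried the defining genes of retina. Genes of adjacent tissues were detected as well, and their levels differed between arrays. The summed linear intensity of 9 measured pigment epithelium markers, of 12 listed, ran from 1507 to 3562 in aged females, against 920 to 8358 in young females, and from 6893 to 10960 in aged males, against 1888 to 4234 in young males. The sum of 6 measured fibroblast markers, of 8 listed, ran from 694 to 1213 in aged females, against 1150 to 3811 in young females, and from 1080 to 2801 in aged males, against 1382 to 3678 in young males. The highest fibroblast sums were those of female young 4 (3811) and male young 1 (3678). These 2 arrays also stood apart among the members: each was the highest of its group for 30 of 66 member probes, against 23.8% and 23.5% of all tested probes. The fibroblast markers Dpt and Gsn and the pigment epithelium marker Tyr were not detected. In whole tissue, fewer cells of a type and less RNA per cell cannot be told apart. Some member differences with age within a sex moved by over 1.5 times without the one of these 2 arrays that belongs to that sex. Those that are printed below and are above 0.1 in size are also given without it. Markers and genes outside the members were not checked in this way.

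The question of the first comparison was which matrix genes differed between aged and young retina within each sex. In females 0 of 66 member probes passed the limma test at an adjusted p under 0.05, where 0.633% of all tested probes did. At an unadjusted p under 0.05, 3 members were higher and 6 were lower in aged females, with backgrounds of 4.3% upward and 2.84% downward. In males 2 members passed, where 0.992% of all tested probes did, and both, Col19a1 and Col8a2, rose. At an unadjusted p under 0.05, 6 members were higher and 11 lower in aged males, with backgrounds of 6.58% and 7.98%. Over the mean of both sexes 3 members passed, where 1.88% of all tested probes did: Col19a1 rose, Mfap4 fell, and Col8a2 had a value above 0 that rests on a group without detection, as given below. In that comparison 6 members were higher and 13 lower at an unadjusted p under 0.05, with backgrounds of 5.59% and 5.47%. The median member difference was -0.012 in females and -0.085 in males, beside -0.00099 and -0.022 over all tested probes.

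**Figure D1:**
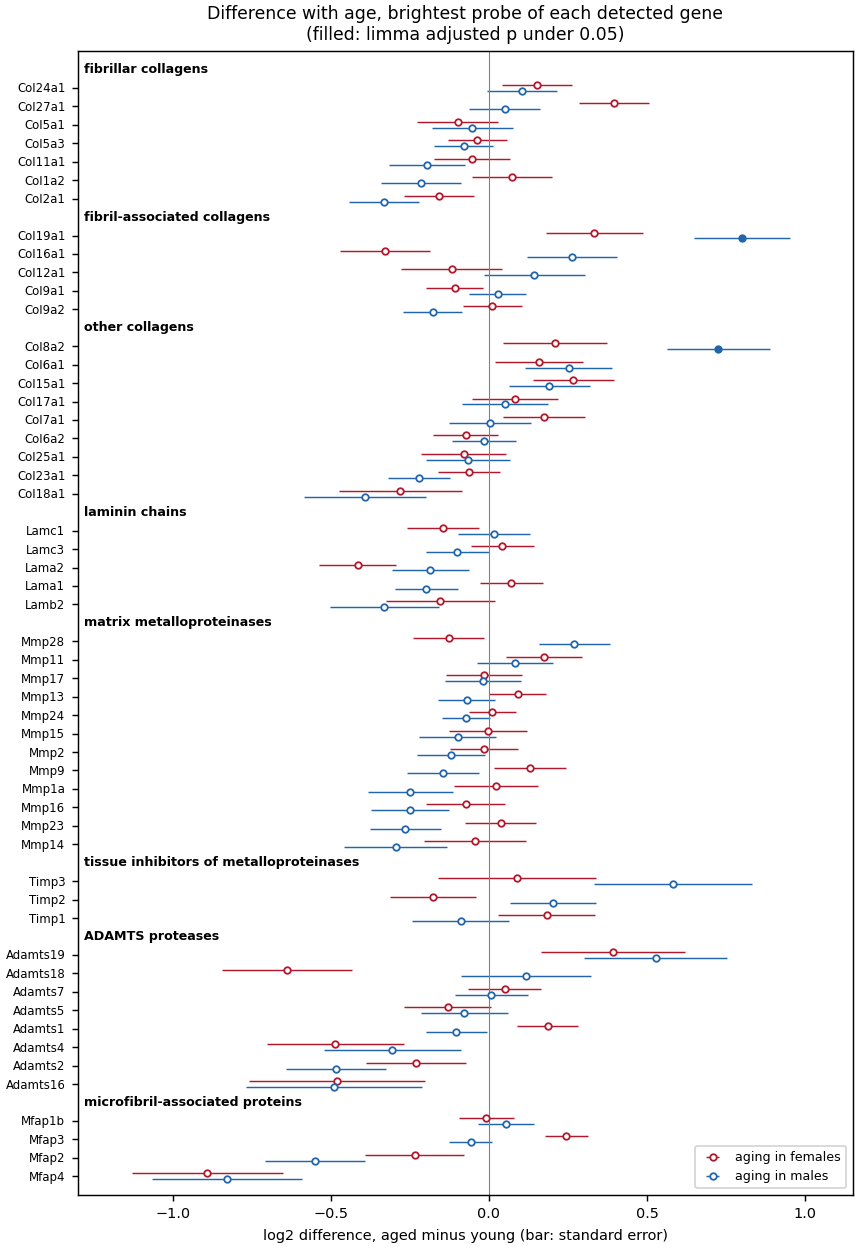
Log2 difference between aged and young retina (horizontal axis, log2 units) for the brightest probe of each of 53 detected genes, ordered by role, in females (red) and males (blue), with standard errors. The 2 filled points, Col19a1 and Col8a2 in males, passed the limma test at an adjusted p under 0.05. Mfap4 lies lowest in both sexes.

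The windows before the transcription start of the called genes are shown because Col19a1 and Col8a2 both rose in males and Col8a2 and Adamts18 were both lower in aged females than in aged males. They are RefSeq sequence of GRCm38.p6, 250 bases 5′ to 3′ on the gene's strand, ending at the base before the start. Mfap4, on chromosome 11, is named only. Capitals mark matches, on either strand, to the 5 motifs searched. The TATA box was taken as TATAAA. The GC box was taken as GGGCGG. The CCAAT box has its own name as its letters. The AP-1 element was taken as TGANTCA, where N is any base. The E-box was taken as CACGTG.
Col19a1, chr1:24587438-24587687, minus strand: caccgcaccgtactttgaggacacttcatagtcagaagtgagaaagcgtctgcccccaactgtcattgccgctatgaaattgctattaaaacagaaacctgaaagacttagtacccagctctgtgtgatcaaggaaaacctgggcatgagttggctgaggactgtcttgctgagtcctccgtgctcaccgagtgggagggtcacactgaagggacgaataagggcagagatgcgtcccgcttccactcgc
Col8a2, chr4:126286544-126286793, plus strand: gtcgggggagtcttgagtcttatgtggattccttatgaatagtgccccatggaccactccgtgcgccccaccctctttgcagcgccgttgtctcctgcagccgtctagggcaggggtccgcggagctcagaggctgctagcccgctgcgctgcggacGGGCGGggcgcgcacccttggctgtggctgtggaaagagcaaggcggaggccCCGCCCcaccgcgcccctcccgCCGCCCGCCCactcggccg
Adamts18, chr8:113848840-113849089, minus strand: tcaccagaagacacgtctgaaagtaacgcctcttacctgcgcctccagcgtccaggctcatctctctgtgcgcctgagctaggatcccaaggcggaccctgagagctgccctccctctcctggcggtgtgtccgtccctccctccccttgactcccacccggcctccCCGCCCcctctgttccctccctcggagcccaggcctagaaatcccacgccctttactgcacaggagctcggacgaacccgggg
The Col8a2 window held 4 GC boxes, of which 2 overlap, the Adamts18 window held 1 and the Col19a1 window held none of the 5 motifs. A GC box was present in 32.7% of 32851 windows of this length, a TATA box in 12.4%, a CCAAT box in 33.8%, an AP-1 element in 6.75% and an E-box in 6.02%. The G and C content was 52% for Col19a1, 70% for Col8a2 and 65.2% for Adamts18, with a median of 52.4% over all windows. These matches describe the letters only.

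Col19a1 encodes a fibril-associated collagen, one of the collagens that coat fibres rather than form them and that in mouse brain is made by some neurons. Its level was 5.39, 5.15, 5.74 and 5.98 in the aged males, against 4.54, 4.78, 4.89 and 4.86 in the young males, with no overlap. Its probe was detected on all 4 aged male arrays and on 3 of 4 young male arrays. Col19a1 rose 1.74-fold in males (log2 difference 0.80 ± 0.15 SE, limma adjusted p = 0.0154). In aged females it was 5.34, 5.75, 5.25 and 5.61, against 5.29, 5.16, 4.99 and 5.17 in young females, and the groups overlapped. The female difference was 0.33 ± 0.15 and did not pass (adjusted p = 0.666). Over both sexes Col19a1 rose by 0.57 ± 0.11 (adjusted p = 0.00745). The male call was lost without male young 1 (adjusted p = 0.0514) and without male aged 3 (adjusted p = 0.0676), with differences of 0.72 and 0.74. It was also lost with slide as a fixed block (adjusted p = 0.0538) and with the authors' scaled values, raised to 16 where lower (adjusted p = 0.101). With those scaled values the call over both sexes was lost too (adjusted p = 0.0680). Within slides, the aged minus young difference was 0.85 (slide 1) and 0.57 (slide 3) in males, and -0.05 (slide 2) and 0.62 (slide 4) in females, with 1 or 2 arrays per age.

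Col8a2 encodes the alpha 2 chain of type VIII collagen, a short-chain collagen best known from Descemet's membrane of the cornea. Its level was 5.19, 5.93, 5.35 and 5.17 in aged males, against 5.12, 4.71, 4.41 and 4.49 in young males, and the lowest aged value lay just above the highest young one. It rose 1.65-fold in males (0.73 ± 0.16 SE, limma adjusted p = 0.0413). In aged females it was 4.40, 4.81, 4.54 and 4.75, against 4.35, 4.46, 4.48 and 4.39 in young females, which is near the detection limit. Its probe was detected on 2 of 4 aged female arrays and 0 of 4 young female arrays, and on all 4 aged male and 2 of 4 young male arrays. The fitted female difference was 0.21 and did not pass (limma adjusted p = 0.895). Its size is not measured, since no young female array detected the probe. The young female level was also taken as the lowest detected signal of each array, or the probe's own signal if higher. Against the mean of these, the aged female mean was 1.02-fold higher. That ratio is no lower bound, since the probe was detected on only 2 of 4 aged female arrays. The male call was kept in 7 of 16 fits that each left out 1 array, with adjusted p between 0.0130 and 0.156. Calls were lost without female young 1, 2 or 3, female aged 3, male young 2, 3 or 4, and male aged 2 or 3. Within slides the male difference was 0.06 on slide 1 and 1.19 on slide 3. In females it was 0.19 on slide 2 and 0.27 on slide 4. Slide 1 held male aged 1, labelled 12 months (5.19), and male young 1, the highest young male (5.12). Without male young 1 the fitted male difference was 0.87. Among 12 other settings the male call was kept in 5. The fitted mean over both sexes, 0.47 ± 0.12 (adjusted p = 0.0471), includes the young females, in which the probe was not detected, so it is no measured difference of both sexes. It passed in 4 of 16 fits with 1 array left out, those without female aged 1, male young 1, male aged 1 or male aged 4 (adjusted p from 0.0107 to 0.112), and in 6 of 11 other settings (0.0158 to 0.413). The pigment epithelium sum was higher in all 4 aged male arrays than in any young male array, and all 9 measured ones had differences above 0 in males. Of these 5 rose: Rpe65, an enzyme of the visual cycle made there, by 1.78 (adjusted p = 0.00131), and Rgr, Lrat, Rdh5 and Slc16a8. The part of these in the Col8a2 difference was not tested.

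Mfap4 encodes a fibrinogen-like protein that binds collagen and elastic fibres. Its level was 6.01, 6.18, 6.21 and 5.72 in aged females, against 6.95, 6.65, 6.31 and 7.78 in young females. In aged males it was 5.86, 6.35, 5.55 and 5.76, against 6.93, 6.67, 6.82 and 6.41 in young males. In neither sex did the groups overlap. It fell by 0.86 ± 0.17 SE over both sexes (1.81-fold, limma adjusted p = 0.00941), and the differences were -0.89 ± 0.24 in females (adjusted p = 0.158) and -0.83 ± 0.24 in males (adjusted p = 0.115). The mean kept its call in all 16 fits that each left out 1 array and in all 12 other settings, with adjusted p of at most 0.0472 and differences between -1.08 and -0.68. Without the 2 young arrays of high fibroblast markers, which were chosen after seeing the data, it was -0.68 ± 0.13 (adjusted p = 0.00931). The female difference passed the threshold without female young 3. Within slides Mfap4 was lower in aged mice on all 4 slides that held both ages of a sex, by 0.59 to 1.07. All 6 measured fibroblast markers lay below 0 over both sexes and in females, while in males 3 lay above 0 and 3 below. Of the 6, only Pdgfra passed in females, with a fall of 0.82 ± 0.17 (limma adjusted p = 0.0290). A single marker does not show which cells made the RNA. The part of these markers in the result was not tested.

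**Figure D2:**
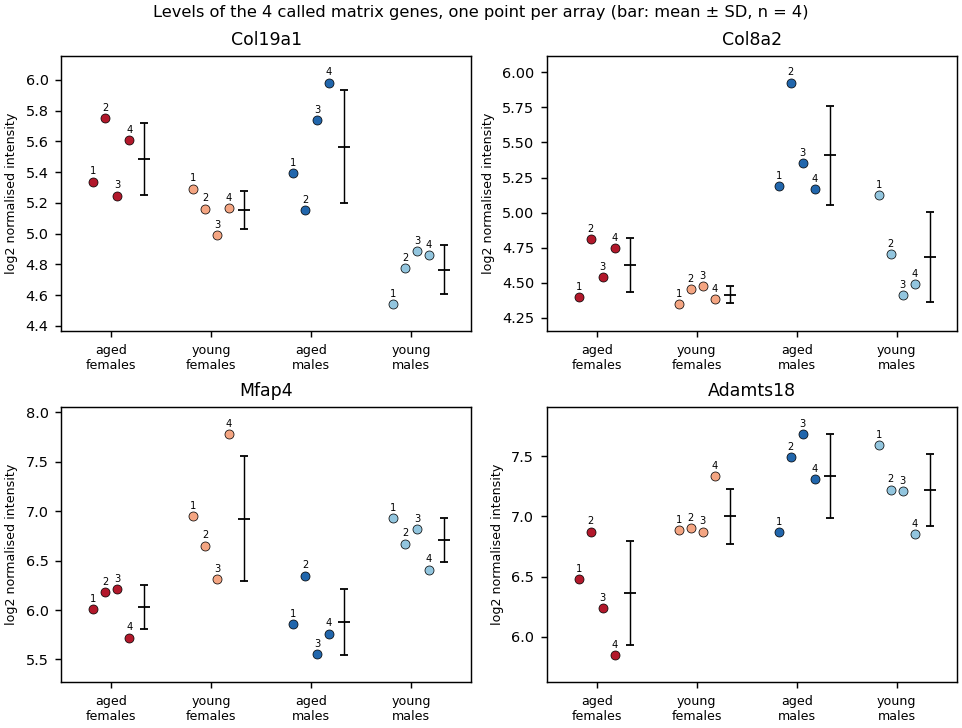
Log2 normalised intensity (vertical axes) of Col19a1, Col8a2, Mfap4 and Adamts18 on each of 16 arrays, numbered by replicate, with the mean and SD of each group of 4. Aged and young males do not overlap for Col19a1, Col8a2 and Mfap4, and Adamts18 is lowest in aged females.

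Among the fibrillar collagens 8 probes for 7 of 11 matched genes were detected, and 0 passed in either sex. Col1a1, Col3a1, Col5a2 and Col11a2 were not detected. Col2a1, the main collagen of vitreous and cartilage, was 8.13, 8.04, 7.76 and 8.02 in aged females, against 8.15, 8.30, 8.25 and 7.88 in young females, and the groups overlapped. In aged males it was 8.33, 8.05, 7.99 and 8.18, against 8.30, 8.41, 8.56 and 8.60 in young males, again with overlap. Its difference was -0.33 ± 0.11 in males (adjusted p = 0.169) and -0.16 ± 0.11 in females, and a second probe gave -0.32 and -0.07. Col27a1 was 6.15, 6.06, 5.97 and 5.94 in aged females, against 5.62, 5.87, 5.71 and 5.33 in young females, without overlap, a difference of 0.40 ± 0.11 that did not pass (adjusted p = 0.202). In males it was 0.05 ± 0.11. Col11a1, Col1a2 and Col24a1 had differences of -0.20, -0.21 and 0.10 in males, and Col24a1 0.15 in females. Without male young 1 the male value of Col1a2 was -0.12, and without female young 4 the female value of Col24a1 was 0.06. Without female young 4 the female difference of Col2a1 was -0.25.

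Among the fibril-associated collagens 5 of 7 genes were detected, all with 1 probe, and Col19a1 was the 1 that passed. Col16a1, which binds fibres in several connective tissues, was 6.11, 6.24, 6.02 and 5.97 in aged females, against 6.04, 6.44, 6.30 and 6.86 in young females, with overlap. In aged males it was 6.53, 6.65, 6.47 and 6.49, against 6.61, 6.06, 6.15 and 6.28 in young males, also with overlap. The differences, -0.33 ± 0.14 in females and 0.26 ± 0.14 in males, had opposite signs and neither passed (adjusted p = 0.616 in females and 0.413 in males). Without female young 4 the female value was -0.18. Col9a1 and Col9a2, chains of the type IX collagen that coats type II fibres, were not called either: Col9a1 differed by -0.11 in females and Col9a2 by -0.18 in males.

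Of the other collagens 9 of 12 genes were detected on 14 probes, and Col8a2 passed in males. Col18a1, the basement membrane collagen whose end fragment is endostatin, had a brightest-probe difference of -0.28 ± 0.19 in females and -0.39 ± 0.19 in males, and a second probe gave -0.16 and -0.43 (adjusted p = 0.0787 in males). Without the young array of high fibroblast markers of each sex, female young 4 and male young 1, the brightest probe gave -0.11 in females and -0.20 in males, and the second -0.13 and -0.36. Col15a1, a related collagen of vessel walls, differed by 0.27 ± 0.13 in females, Col23a1, a transmembrane collagen, by -0.22 ± 0.10 in males and Col7a1, the anchoring fibril collagen of skin, by 0.18 ± 0.13 in females, which was 0.06 without female young 4. None of these passed. Probes of Col7a1 and Col17a1 disagreed in sign in males.

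Of the laminin chains 5 of 9 genes were detected, 1 probe each, and 0 passed. Lama2, the alpha chain of the laminins of muscle and vessel basement membranes, was 4.77, 4.56, 4.56 and 4.70 in aged females, against 5.04, 5.20, 5.01 and 4.99 in young females. These did not overlap, but the difference of -0.42 ± 0.12 had an adjusted p of 0.235. In males it was -0.19 ± 0.12, and -0.10 without male young 1. Lamb2, the beta chain of synaptic and retinal laminins, differed by -0.15 ± 0.17 in females and by -0.33 ± 0.17 in males. Without female young 4 the female value was 0.01, and without male young 1 the male value was -0.21. Lama1, of the inner limiting membrane, differed by -0.20 in males, and Lamc1, the gamma chain of most laminins, by -0.15 in females, which was -0.04 without female young 4. Over the mean of both sexes all 5 laminin differences lay below 0, where 54.44% of all tested probes did and their median was -0.01. Without female young 4 and male young 1, Lamc1 was -0.04 in females and 0.09 in males, and Lamc3 0.07 and -0.05. The larger value was above 0 for these and below 0 for Lama1, Lama2 and Lamb2. The shared direction thus depended on those arrays.

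Of the matrix metalloproteinases 12 of 22 genes were detected on 13 probes and 0 passed with age. Mmp3, Mmp7, Mmp8, Mmp10 and Mmp12 were among those not detected. Mmp28 differed by 0.27 ± 0.11 in males and -0.13 ± 0.11 in females. Mmp23 differed by -0.26 in males, the membrane-bound Mmp16 by -0.25 in males and Mmp11 by 0.17 in females. Mmp9, the gelatinase of inflamed tissue, differed by 0.13 ± 0.11 in females, or 0.07 without female young 4, and the gelatinase Mmp2 by -0.12 in males, or -0.07 without male young 1. The 2 probes of Mmp1a disagreed in sign in both sexes.

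None of the 3 detected TIMP genes, of 4 matched, passed with age. Timp3, which in the eye is bound to Bruch's membrane and is made by pigment epithelium, was 9.72, 10.43, 9.86 and 10.12 in aged males, against 10.01, 9.23, 9.40 and 9.17 in young males. The groups overlapped through male young 1 alone. The difference was 0.58 ± 0.25 (adjusted p = 0.302), and without male young 1 it was 0.77. In aged females Timp3 was 9.32, 9.26, 9.80 and 9.24, against 8.91, 8.998, 9.16 and 10.21 in young females, with overlap through female young 4 alone. The female difference was 0.09 ± 0.25, and 0.39 without female young 4. A second Timp3 probe gave a smaller male difference of 0.16, or 0.22 without male young 1. In females that probe gave 0.15, or 0.31 without female young 4. Those 2 arrays were singled out with the data in view and are the highest young arrays for Timp3, so no Timp3 test is given without them. Female young 4 and male young 1 had pigment epithelium sums of 8358 and 4234, each the highest of its group, and their part in the Timp3 levels was not tested. Timp2 differed by -0.18 ± 0.14 in females and 0.20 ± 0.14 in males, and Timp1 by 0.18 in females and -0.09 in males. Without female young 4 the female values were -0.09 for Timp2 and 0.35 for Timp1. On a second Timp1 probe the differences were 0.14 in females and 0.03 in males, so the 2 probes disagreed in sign in males.

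**Figure D3:**
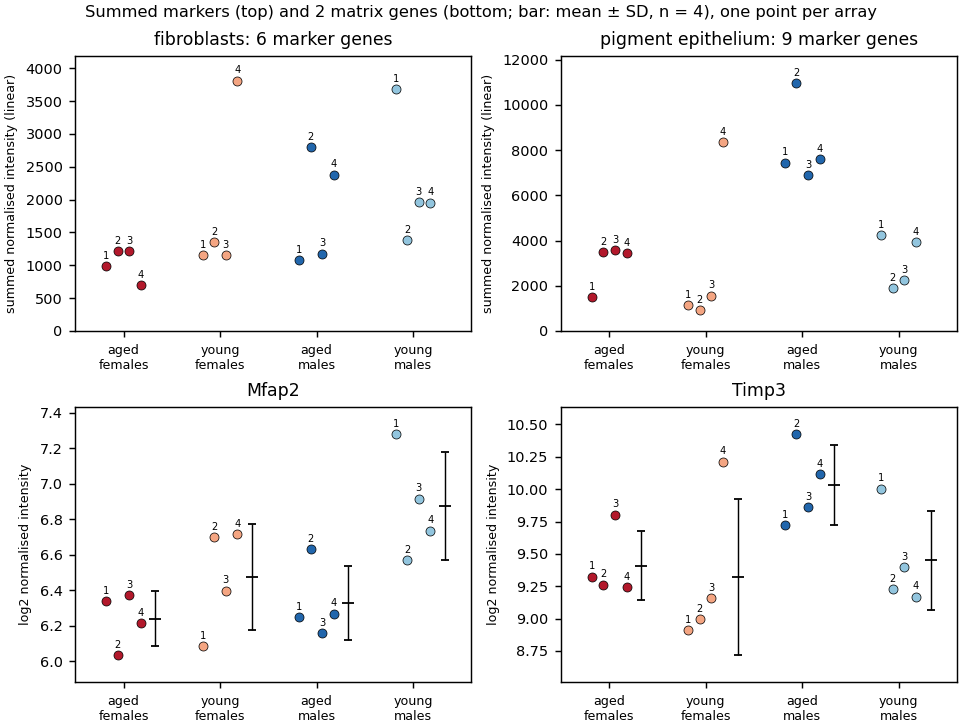
Summed linear intensity of fibroblast and pigment epithelium markers (top) and log2 normalised intensity of Mfap2 and Timp3 (bottom) on 16 arrays, numbered by replicate. Female young 4 and male young 1 carry the highest fibroblast sums (3811 and 3678), and they are the highest arrays of their groups for Mfap2 and Timp3.

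Of the ADAMTS proteases 8 of 14 genes were detected on 9 probes, and 0 passed with age. Adamts18, in mouse needed for normal eye development, was 6.48, 6.87, 6.24 and 5.85 in aged females, against 6.88, 6.90, 6.87 and 7.34 in young females, with equal values at the border. The difference was -0.64 ± 0.21 (adjusted p = 0.322) in females and 0.12 ± 0.21 in males, or 0.24 without male young 1. Adamts2, the procollagen N-proteinase, differed by -0.48 ± 0.16 in males (adjusted p = 0.169) and -0.23 ± 0.16 in females, or -0.08 without female young 4. This Adamts2 probe was detected on 4 of 4 young male and 1 of 4 aged male arrays, so the aged male level is near the detection limit. Adamts4, an aggrecanase, differed by -0.49 ± 0.22 in females, Adamts1 by 0.19 in females, Adamts19 by 0.53 ± 0.23 in males and Adamts16 by -0.49 ± 0.28 in males. The probes of Adamts1 and Adamts16 were detected on 5 and 11 of 16 arrays.

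Of the microfibril-associated proteins 4 of 6 genes were detected on 7 probes. Mfap1b, which shares the name, encodes a splicing factor. Mfap2, a small protein of fibrillin microfibrils, differed by -0.55 ± 0.16 in males (adjusted p = 0.115) and -0.24 ± 0.16 in females, and its 3 probes lay below 0 in both sexes. Without female young 4 and male young 1 the brightest probe gave -0.15 in females and -0.42 in males. Its level was 6.25, 6.63, 6.16 and 6.27 in aged males, against 7.28, 6.57, 6.92 and 6.74 in young males, with overlap. Mfap3 was 9.36, 9.38, 9.34 and 9.27 in aged females, against 9.07, 9.10, 9.17 and 9.03 in young females, without overlap, a difference of 0.24 ± 0.07 that did not pass (adjusted p = 0.193). Its male difference was -0.06. A second probe gave 0.10 in females, or -0.03 without female young 4, and -0.27 in males.

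**Figure D4:**
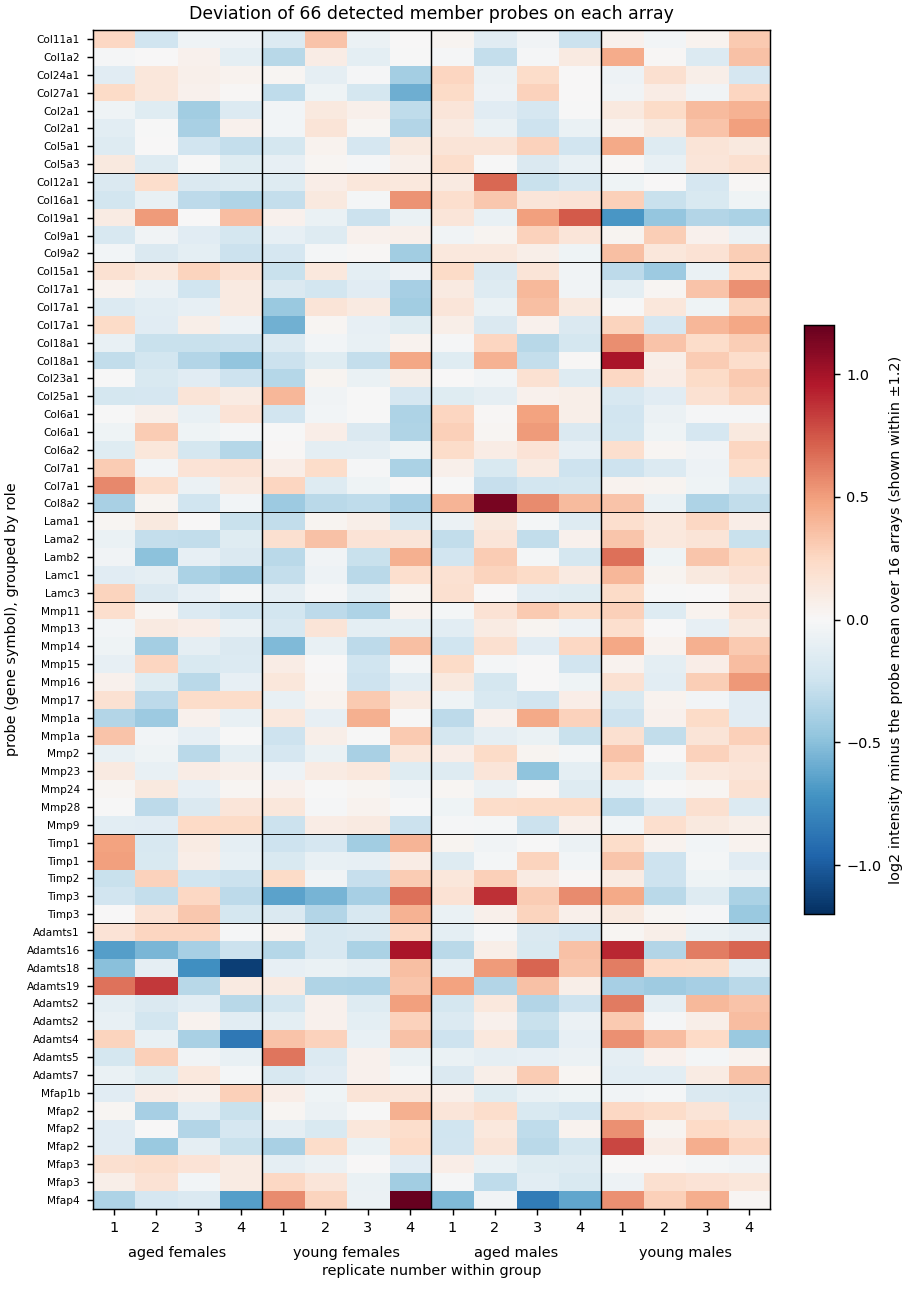
Log2 intensity minus the probe's mean over 16 arrays (color, shown within ±1.2) for 66 member probes, grouped by role, with 1 column per array. Female young 4 and male young 1 are the highest arrays of their groups for 30 of 66 probes each.

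The genes around the members were read from lists of collagen processing and crosslinking (17 of 24 genes measured), glycoproteins and proteoglycans (28 of 41), integrins and other receptors (15 of 26), other proteases and their regulators (16 of 23) and TGF-beta and CCN signals (20 of 22). In either sex alone, 0 of these 96 genes passed the limma test, and at an unadjusted p under 0.05 there were 2 higher and 9 lower in aged females and 6 higher and 8 lower in aged males. The backgrounds were 4.3% upward and 2.84% downward in females, and 6.58% and 7.98% in males. Over the mean of both sexes 3 of the 96 passed, beside 1.88% of all tested probes. P3h1, a collagen prolyl hydroxylase, fell by 0.28 ± 0.07 (adjusted p = 0.0425), Fbn1, the fibrillin that forms the microfibrils, fell by 0.50 ± 0.11 (adjusted p = 0.0193), and Tnxb, a tenascin of fibrous tissue, rose by 0.41 ± 0.09 (adjusted p = 0.0227). Each had the same sign in both sexes: Fbn1 -0.46 and -0.54, P3h1 -0.26 and -0.30, and Tnxb 0.38 and 0.43 in females and males. These values were not checked without female young 4 or male young 1.

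The second comparison set females against males at each age. In aged mice 2 members passed, where 0.686% of all tested probes did, and both were lower in females. At an unadjusted p under 0.05, 3 members were higher and 10 lower in aged females, with backgrounds of 7.05% and 5.67%. Adamts18 was 6.48, 6.87, 6.24 and 5.85 in aged females, against 6.87, 7.49, 7.68 and 7.31 in aged males, and the groups overlapped by the value of 1 array each. It was lower in females by 0.98 ± 0.21 (1.97-fold, limma adjusted p = 0.0378). Col8a2, given above, was lower in females by 0.78 ± 0.16 (1.72-fold, adjusted p = 0.0353), and the groups did not overlap. Both calls depended on single arrays: Adamts18 kept its call in 7 of 16 fits that each left out 1 array (adjusted p from 0.00639 to 0.164) and Col8a2 in 9 of 16 (0.0200 to 0.141). Both calls were lost without female aged 1, 3 or 4 or male aged 2, 3 or 4, and without female young 2, and that of Adamts18 also without female young 1 or male young 3. With slide as a fixed block both calls were lost, at adjusted p = 0.0888 for Adamts18 and 0.136 for Col8a2. Within slides that held both sexes of aged mice, Adamts18 differed by -0.19 (slide 1, 2 females and 1 male) and -1.46 (slide 4, 1 of each) and Col8a2 by -0.58 and -0.42. Lamc1 differed by -0.46 ± 0.11 (adjusted p = 0.0875) and Col16a1 by -0.45 ± 0.14 (adjusted p = 0.168), and neither passed. The pigment epithelium sum was lower in every aged female array than in any aged male array, and Rpe65 was lower in aged females by 1.37 (adjusted p = 0.0165). All 7 measured lens markers had differences below 0 too, with a median of -1.16 and 4 at an unadjusted p under 0.05, as had all 6 fibroblast markers. The part of these markers in the differences was not tested.

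In young mice 0 members passed, where 0.393% of all tested probes did. At an unadjusted p under 0.05, 2 members were higher and 16 lower in young females, with backgrounds of 7.67% and 7.98%. Of the 66 members 47 lay below 0, with a median of -0.13, beside 54.32% below 0 and a median of -0.02 over all tested probes. All 9 pigment epithelium markers, with a median of -0.66, and 5 of 6 fibroblast markers lay below 0 as well, and their part was not tested. All 8 fibrillar collagen probes lay below 0. The number lower at that threshold was 11 without male young 1, 21 without female young 4 and 17 without both. The values nearest the threshold were Col9a2 at -0.40 ± 0.09 (adjusted p = 0.0764) and a probe of Col18a1 at -0.41 ± 0.11 (adjusted p = 0.0967). Within slides the median member difference was -0.11 (slide 2, 1 female and 1 male) and -0.13 (slide 3, 1 female and 2 males).

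**Figure D5:**
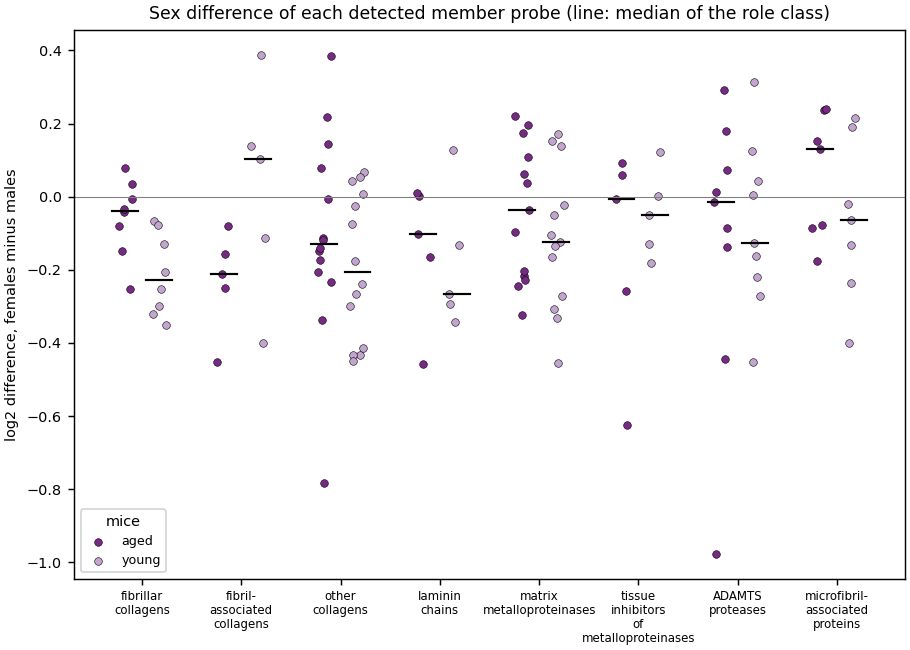
Log2 difference between females and males (vertical axis) for each of 66 member probes, by role class, in aged mice (dark) and young mice (light), with class medians. Adamts18 and Col8a2 are the lowest points in aged mice, at -0.98 and -0.78, and 47 of 66 members lie below 0 in young mice.

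Whether the difference with age itself differed between females and males was tested as an interaction. No member passed and 0.0% of all tested probes did, with 5 members above and 5 below at an unadjusted p under 0.05 and backgrounds of 5.31% and 4.02%. The female minus male value of the difference with age was -0.47 ± 0.22 for Col19a1 (limma adjusted p = 0.525), -0.52 ± 0.23 for Col8a2 (adjusted p = 0.516), which includes the young females without detection, and -0.76 ± 0.29 for Adamts18 (adjusted p = 0.509). Col16a1 had -0.59 ± 0.20 (adjusted p = 0.499), Mfap3 0.30 ± 0.10 (adjusted p = 0.499), Mmp28 -0.40 ± 0.16, Col27a1 0.35 ± 0.16, Lama1 0.27 ± 0.14 and Timp2 -0.38 ± 0.19. Calls in males and not in females are thus not shown to differ between the sexes.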

How the data were processed

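RNA of 16 retina samples was measured on 1-colour Illumina BeadChips, and groups were read from the sample titles. The members and gene lists were chosen with earlier results of these data known. The deposited intensity values are average signals per probe, background-subtracted and not scaled between arrays, and the deposited detection p-values stand beside them, per the file headers. A second table deposited by the authors holds the same signal intensity values scaled to an equal array mean of 197. Array medians of these scaled values were 10.5 to 13.2, and values below 16 were set to 16 before fitting.

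Array mean intensity was 158 to 240, 52.6% to 57.0% of probes were detected per array, and the number of arrays limits the precision. R 4.3.3 with limma 3.58.1 was used to normalise the intensities by its neqc function (offset 16, quantile, log2), and 15016 detected probes were fitted in 1 limma model with 4 group means (12 residual degrees of freedom). The p-values were adjusted over all 15016 probes by Benjamini-Hochberg, two-sided, at 0.05. The scripts were tested on simulated data. Probes were named by matching the file's gene name to RefSeq gene symbols and synonyms (24584), and otherwise kept the file's name (1113). Genes were named where called, and otherwise where among the 3 smallest p-values of a role class in either sex or its smallest for the interaction, by the brightest probe. Mmp2, Mmp1a, Col17a1, Lamc3 and Mfap1b, and some values of named genes in the other sex, were added with their values known. Arrays of a group correlated at 0.983 to 0.995. Slides came from the array names, and slide 5 held 1 array, female young 4. Alternatives were other backgrounds, scalings and filters, array weights, slide and replicate blocks, and leaving out arrays. Of these, leaving out female young 4 and male young 1 together was chosen after seeing the data. The sources used here name no array software and no annotation build.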

Additional observations from a re-analysis of the deposited data

Results flagged for a closer look

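In 5 of 140 tested groups of a named member (a gene's brightest probe in 1 group of 4 arrays), 1 array lay far from the other 3, by a gap above Dixon's 95% critical share of the group's whole range. Chance gives about 1 in 20 groups. In young females the array female young 4 was high for Adamts16 (level 5.89, next 4.73, gap 0.862 of the range) and for Adamts18 (7.34, next 6.90, gap 0.937). In aged males the array labelled 12 months, male aged 1, was low for Mmp28 (4.61, next 4.87, gap 0.948). In aged females female aged 2 was high for Timp2 (10.15, next 9.63, gap 0.950) and female aged 3 for Timp3 (9.80, next 9.32, gap 0.853).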

How the results depend on the processing

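The count of member probes called in aged against young males, 2, was 1 without background correction, with median scaling, without the detection filter and with the replicate block, 0 with the authors' scaled values, the stricter detection filter and slide as a fixed block, and 4 with array weights. The stricter filter removed the probes of Col19a1 and Col8a2 before fitting, so its counts here and below do not test those genes. Over both sexes, 3, it was 1 with the authors' scaled values and the stricter filter, 2 with median scaling and the replicate block, and 5 without female young 4 and male young 1; with slide as a fixed block the 3 were Col19a1, Mfap4 and Col2a1, not Col8a2. In aged females against aged males, 2, the count was 1 without background correction, with the stricter filter and slide as a fixed block (there Lamc1, with both others lost). It was 0 with the authors' scaled values, no filter, the replicate block and only the groups compared. Without both female young 4 and male young 1 the counts were 0 with age in females, 3 in males and 5 over both sexes. They were 4 in aged females against aged males, 0 in young mice and 0 for the interaction. These 2 arrays were chosen after seeing the data, so these counts are descriptive only. Leaving out 1 array at a time gave 0 to 1 called with age in females (1, Mfap4, without female young 3), 0 to 3 in males, 2 to 3 over both sexes, 0 to 3 in aged females against aged males, 0 to 2 in young mice (2, Col17a1 and Col9a2, without male young 2) and 0 for the interaction. Lamb2 in females turned to 0.0275 with slide as a fixed block, and to 0.0065 without female young 4, alone or with male young 1, with a range of -0.246 to 0.0065 over the arrays left out in turn. Timp3 in females ranged from -0.0476 to 0.386 over the arrays left out in turn and lay below 0 without female young 1 or 2 or female aged 3. Col19a1 was -0.0451 within slide 2 in females. The cause was not tested. A block for the replicate number is only a hint, since same-numbered arrays correlated at -0.341 to 0.381, so the numbers do not pair the samples. A fixed slide block also uses up female young 4, alone on its slide.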
